A study of Homo sapiens with 2 samples.

Results

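The regions described here are the LDB1 peaks of human chromosome 22, chosen by the chromosome given for each row of the deposited peak list (hg38 build, main chromosome only). There were 1677 of them among 53742 peaks in all, and among 52765 on chromosomes 1 to 22 and X. The study made 2 CUT&Tag libraries from untreated cells labelled NB4, 1 with an antibody against LDB1 and 1 with non-specific IgG, and only the LDB1 list was analysed here. NB4 is an established acute promyelocytic leukaemia line, known for the PML::RARA fusion. There was no replicate, so every value is a description of 1 library, and the intervals given are exact (Clopper-Pearson) 95% binomial intervals that cover counting error only. The list gave a position and a width for each peak and no height or read count, so the depth was unknown.

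CUT&Tag uses an antibody to bring the Tn5 transposase to a protein on chromatin, where it cuts and tags the neighbouring DNA. LDB1 does not bind DNA itself: it pairs with itself and, through LMO proteins, is held at DNA by GATA factors and by basic helix-loop-helix dimers such as TAL1 with an E protein. In blood cells it is known for bringing distant enhancers to the promoters they act on. Chromosome 22 is small and rich in genes. Its 22q11 end holds the low-copy repeats that flank the 22q11.2 deletion (DiGeorge) region, the immunoglobulin lambda light chain locus and BCR.

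A feature of the peak positions bears on the label of the library and on every result from 22q11. The densest run of peaks on the chromosome stopped inside BCR. On chromosome 9, the largest rise in peak number lay inside ABL1, from 41 peaks in the 500 kb before to 126 in the 500 kb after. Among the largest rises of each chromosome it ranked 5. BCR and ABL1 are the genes joined in the Philadelphia chromosome of chronic myeloid leukaemia, which is not a rearrangement NB4 is known for and which lines such as K562 carry. The stretch without a peak around CDKN2A on 9p, a gene chosen by name for this check, was 9.29 Mb long. The longest gaps on chromosome 22 were 2.71 and 2.44 Mb, and gaps on the remaining chromosomes were not compared. Neither copy number nor the identity of the cells was measured, and their part in the results was not tested. Where a segment is present in extra copies, more copies and more peaks per copy cannot be told apart from these values. The sample is therefore called the library labelled NB4, and the main counts that rest on the dense run are also given without it.

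The sequences show what lay under the widest peaks that took in a listed transcription start of a protein-coding gene. BCR was added because the dense run ended in it. Each is the 250 bases before a listed transcription start, 5′ to 3′ on the gene's own strand, from RefSeq (GRCh38.p14). Capitals mark every match, on either strand, to 7 short motifs. The GATA sites searched were AGATAA and, with another first base, TGATAA. The E-boxes were CAGCTG, which reads the same on both strands, then CAGATG, and as the last one CAGGTG. The RUNX site was TGTGGT, and the ETS site of the PU.1 type was GAGGAAGT. GP1BB is at chr22:19723289-19723538 on the plus strand, GSC2 at chr22:19150293-19150542 on the minus strand, HIRA at chr22:19431734-19431983 on the minus strand and BCR at chr22:23180259-23180508 on the plus strand, all in the dense run. MIOX is at chr22:50486609-50486858, PRR5 at chr22:44676835-44677084 and CDC42EP1 at chr22:37560230-37560479, all on the plus strand and outside it. The PRR5 window lies before a listed start inside the gene, which itself begins at position 44668751.
GP1BB: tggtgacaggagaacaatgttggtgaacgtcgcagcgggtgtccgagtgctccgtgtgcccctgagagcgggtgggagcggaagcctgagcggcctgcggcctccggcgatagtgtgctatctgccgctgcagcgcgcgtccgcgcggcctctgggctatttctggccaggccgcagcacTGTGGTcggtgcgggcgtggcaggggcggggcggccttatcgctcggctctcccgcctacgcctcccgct
GSC2: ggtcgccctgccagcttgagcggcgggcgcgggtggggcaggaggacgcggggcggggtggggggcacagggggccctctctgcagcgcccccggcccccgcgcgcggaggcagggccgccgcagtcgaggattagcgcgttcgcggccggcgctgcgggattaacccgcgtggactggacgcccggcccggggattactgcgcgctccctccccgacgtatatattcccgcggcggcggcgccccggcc
HIRA: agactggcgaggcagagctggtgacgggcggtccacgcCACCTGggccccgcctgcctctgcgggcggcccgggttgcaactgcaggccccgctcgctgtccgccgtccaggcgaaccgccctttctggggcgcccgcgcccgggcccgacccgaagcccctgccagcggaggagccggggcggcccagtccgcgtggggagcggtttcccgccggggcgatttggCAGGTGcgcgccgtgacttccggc
BCR: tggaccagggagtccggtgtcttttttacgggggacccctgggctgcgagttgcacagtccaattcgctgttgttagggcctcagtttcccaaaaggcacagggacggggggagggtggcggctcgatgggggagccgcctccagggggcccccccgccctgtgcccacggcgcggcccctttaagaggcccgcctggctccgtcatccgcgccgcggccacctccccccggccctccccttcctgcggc
MIOX: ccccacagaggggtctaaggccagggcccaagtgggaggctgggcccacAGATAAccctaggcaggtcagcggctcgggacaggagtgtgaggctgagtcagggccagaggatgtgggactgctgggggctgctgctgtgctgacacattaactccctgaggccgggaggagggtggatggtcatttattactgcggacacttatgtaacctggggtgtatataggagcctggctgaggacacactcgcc
PRR5: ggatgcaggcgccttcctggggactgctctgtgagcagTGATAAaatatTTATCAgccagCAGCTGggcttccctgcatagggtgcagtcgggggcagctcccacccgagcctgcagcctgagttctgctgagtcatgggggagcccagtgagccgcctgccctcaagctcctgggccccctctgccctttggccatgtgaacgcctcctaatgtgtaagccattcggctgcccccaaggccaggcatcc
CDC42EP1: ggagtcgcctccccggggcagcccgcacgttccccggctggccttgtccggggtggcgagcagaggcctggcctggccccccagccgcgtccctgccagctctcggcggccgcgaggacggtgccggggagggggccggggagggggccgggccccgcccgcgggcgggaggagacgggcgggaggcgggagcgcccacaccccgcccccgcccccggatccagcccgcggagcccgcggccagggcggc

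The peaks over these promoters were 5839 bp wide at GP1BB, 2175 bp at GSC2, 2017 bp at MIOX, 1949 bp at PRR5, 1928 bp at CDC42EP1 and 1903 bp at HIRA, where the same peak also held the start of MRPL40. At BCR a 688 bp peak covered 184 of the 300 bases of the promoter window. PRR5, which encodes a subunit of the mTORC2 kinase complex, had 2 matches to TGATAA on opposite strands and 1 to CAGCTG. MIOX, a kidney enzyme of inositol breakdown, had 1 match to AGATAA. GP1BB, the beta chain of platelet glycoprotein Ib, had only the RUNX letters, and HIRA, a histone chaperone, had CAGGTG once on each strand. GSC2, CDC42EP1 and BCR had none of these letters in the 250 bases shown, and were 78.4%, 84.0% and 70.8% G or C.

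Of the 668 chromosome 22 promoter windows in the RefSeq table (300 bases each, 250 before to 50 after a start, including non-coding genes), 102 overlapped a peak and 57 lay wholly inside one. AGATAA was in 7 of the 102 windows with a peak (6.86%, interval 2.80 to 13.6%), in 9.89% of the 566 without one and in 10.3% of all 35116 windows of the genome. TGATAA was in 5 of the 102 (4.90%), against 5.30% without a peak and 7.53% of all windows. The E-box CAGCTG was in 27 of the 102 (26.5%, interval 18.2 to 36.1%), against 17.8% without a peak and 17.9% of all windows. For CAGATG the shares were 13.7%, 15.2% and 14.7%, and for CAGGTG 25.5%, 27.7% and 20.6%. The RUNX letters TGTGGT were in 11.8% of windows with a peak, 14.8% of those without and 13.1% of all, and GAGGAAGT in 5.88%, 4.06% and 2.59%. The GC box GGGCGG was in 60.8%, 52.1% and 45.0% and the CACCC box CCACCC in 48.0%, 37.6% and 34.3%. These counts can hold the same window more than once where motifs overlap. Windows with a peak had a median G and C content of 66.2% over the bases before the start, against 62.0% without a peak, and the windows of all chromosomes had 58.0%. The shares with GATA letters were thus lower with a peak than without one, and the interval for AGATAA took in both. Without the dense run, 69 windows with a peak were left, of which 7.25% held AGATAA and 1.45% TGATAA, against 10.5% and 5.63% of the 497 without a peak. For CAGCTG these shares were 23.2% and 16.7%, and for CAGGTG 17.4% and 26.8%. For the GC box they were 66.7% and 51.5%.

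Chromosome 22 carried 41.8 peaks per Mb over the 40.17 Mb between its first and last peak or gene. That was the second highest density of 23 chromosomes, after chromosome 19 with 58.9, and all chromosomes together had 17.8. Its gene density ranked 3, with 439 protein-coding genes or 10.9 per Mb, and it held 3.82 peaks per gene against 2.66 over all chromosomes. Chromosomes 7 and 8 had more peaks per gene, 4.64 and 3.94. The median peak spanned 597 bp, against 548 bp on the other chromosomes. The quartiles were 427 and 953 bp, the extremes 323 and 7694 bp, and the peaks covered 3.43% of the span.

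The peaks were unevenly placed along the chromosome. In 41 windows of 1 Mb the count ran from 0 to 188 with a median of 27. The 5 fullest windows held 706 peaks (42.1%) and 100 genes (22.8%). The window from 20 to 21 Mb had 188, with PI4KA, TANGO2, DGCR8 and RTN4R among its genes. The window from 19 to 20 Mb had 165 (ARVCF, TXNRD2, GNB1L, DGCR2), and that from 21 to 22 Mb had 153 (PPM1F, HIC2, PPIL2, TOP3B). The window from 39 to 40 Mb had 101 (CACNA1I, MGAT3, SYNGR1), and the one from 23 to 24 Mb, which holds BCR, RSPH14 and GNAZ, had 99. Peaks were absent from 4 windows, from 13 to 15 Mb, where the table lists no protein-coding gene, and from 33 to 35 Mb.

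Across the 41 windows, peak number and gene number had a Spearman rank correlation of 0.762 and a Pearson r of 0.612. Over the 35 windows that did not touch the dense run the values were 0.787 and 0.736. These are descriptions of windows on 1 chromosome in 1 library, which share its depth and its base composition. The plot of peaks and genes by window shows where the 2 counts part. The 5 windows from 19 to 24 Mb had 6 to 22 genes and 79 to 188 peaks. The windows richest in genes had fewer peaks, 64 for 30 genes at 37 to 38 Mb and 70 for 31 genes at 50 to 51 Mb.

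**Figure D1:**
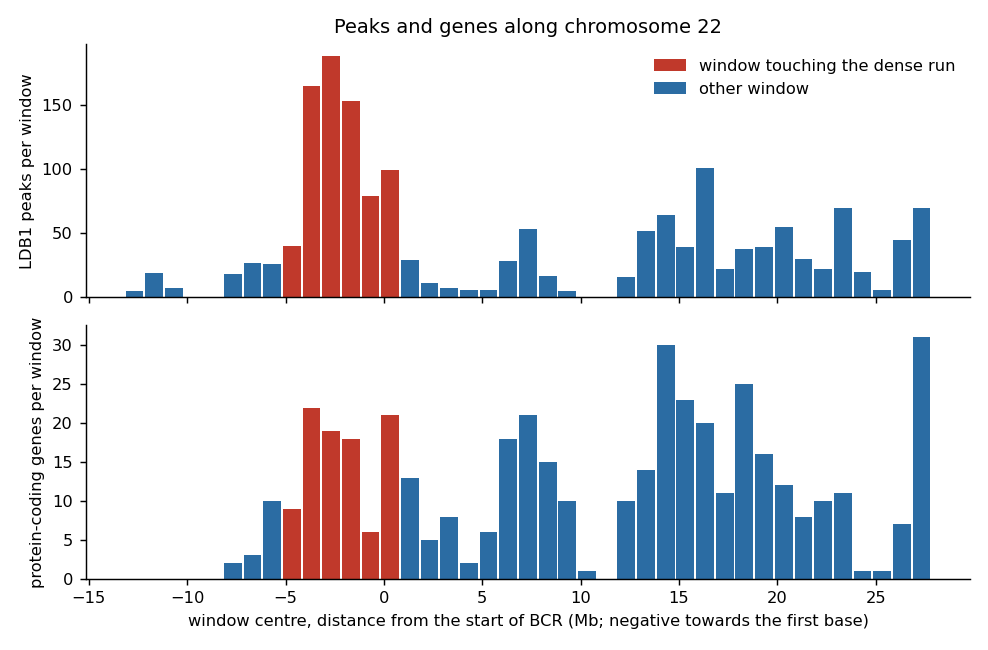
LDB1 peaks (top) and protein-coding genes (bottom) in each 1 Mb window of chromosome 22, against the distance of the window's centre from the start of BCR in Mb. Red windows touch the dense run and reach 188 peaks, while the fullest other window has 101.

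By cytogenetic band, 828 peaks (49.4%) lay in 22q11, 206 (12.3%) in 22q12 and 612 (36.5%) in 22q13, and 31 lay nearer the first base. Within 22q11, band q11.21 had 521 peaks at 121 per Mb, q11.22 had 145 at 104 per Mb and q11.23 had 113 at 47.1 per Mb. In 22q13 the densities were 62.4 per Mb in q13.1 and 65.9 in q13.33, the last band. The sparsest bands were q12.1, with 28 peaks at 7.57 per Mb and 20 genes, and q13.32, with 9 peaks and 1 gene in about 1 Mb. Band borders were rounded to 0.1 Mb, which moves peaks near a border.

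The dense run was defined as the stretch of 100 kb bins whose peak counts most exceed 2 times the chromosome's mean of 4.17 per bin. It ran over 4.40 Mb from DGCR6 to BCR, chr22:18900001-23300000, and held 685 peaks, 40.8% of the chromosome's peaks in 10.9% of its span. Because it was found from the counts, its density is a description, as are its short gaps, its clusters and its share of genes with a nearby peak. It had 156 peaks per Mb against 27.7 in the rest of the chromosome, a ratio of 5.61, whereas its gene density was 16.1 against 10.3 per Mb, a ratio of 1.57. There were 9.65 peaks per gene in it and 2.70 outside. Without it chromosome 22 would rank 3 by peaks per Mb and 8 by peaks per gene. Every one of its 44 bins of 100 kb held a peak (1 to 38, median 14), while 135 of the 358 bins outside held none (median 1, highest 25).

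**Figure D2:**
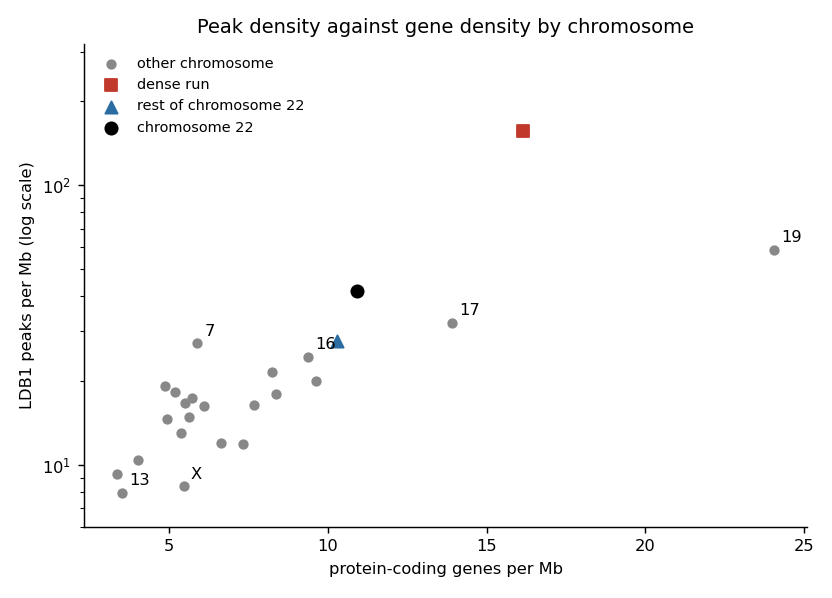
LDB1 peaks per Mb (log scale) against protein-coding genes per Mb for each chromosome (grey), for chromosome 22 (black) and for its dense run and the rest of it (red square, blue triangle). The rest of chromosome 22, at 27.7 peaks per Mb, lies among the other chromosomes, and the dense run, at 156, lies above them all.

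Density varied within the run. Its fullest bins lay from DGCR8 to CCDC188 (38 peaks in 100 kb), at SEPTIN5, GP1BB and TBX1 (34) and inside BCR (34). A sparse stretch of 6 neighbouring bins lay between TOP3B and PRAME, in the immunoglobulin lambda locus, with 1, 6, 9, 4, 2 and 1 peaks. Another lay at CLTCL1 and HIRA, with 3, 4 and 6 peaks in neighbouring bins. ZNF280B and ZNF280A, zinc finger genes inside the locus, were the only 2 of the run's 71 protein-coding genes with no peak in the body or within 10 kb.

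The run ended abruptly in BCR, a gene of 138 kb at chr22:23180509-23318037 that encodes a GTPase regulator. BCR was overlapped by 40 peaks (width 352 to 2394 bp, median 700 bp). The last of them, 1521 bp wide, ended at position 23290031. No peak overlapped the last 28.0 kb of the gene, and the next one (592 bp) began at 23318127, just past its end. In the 100 kb before position 23290031 there were 38 peaks and in the 100 kb after it 1. In 500 kb the counts were 116 and 10, in 1 Mb 150 and 24, and in 2 Mb 281 and 43. Protein-coding genes numbered 1 before and 0 after in 100 kb. Over the longer distances they went the other way from the peaks, 5 before and 9 after in 500 kb, 9 and 20 in 1 Mb, and 24 and 33 in 2 Mb. Among the largest falls of all 23 chromosomes, measured over 500 kb to each side, this one ranked 4, after those on chromosomes 16, 7 and 9. Nearer the other side of the run, just before SEPTIN5, the count rose from 39 in 500 kb to 156, the largest rise on any chromosome.

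**Figure D3:**
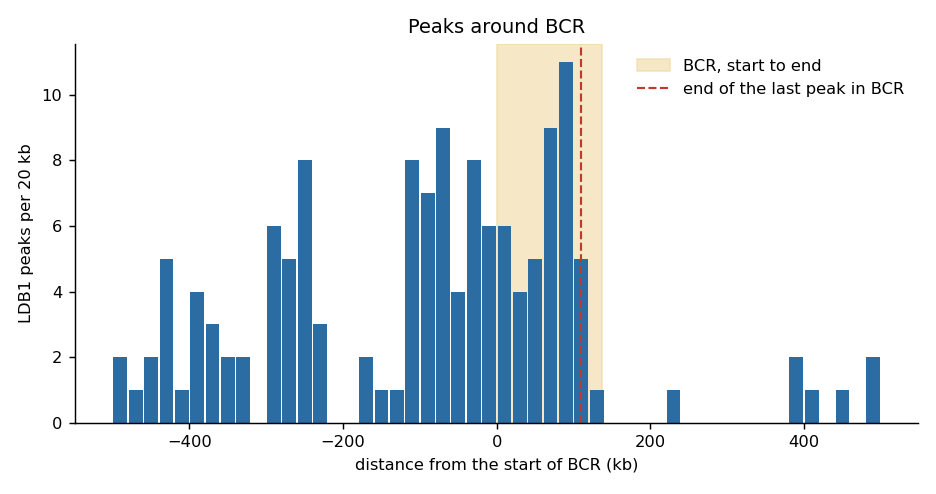
LDB1 peaks in bins of 20 kb against distance from the start of BCR in kb, with the gene shaded and the end of its last overlapping peak dashed. Bins before the dashed line reach 11 peaks, and bins after it have at most 2.

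ABL1 on chromosome 9 gave a pattern of the opposite sense. Its 21 peaks all lay past the first 41.1 kb of the 175 kb gene, after 85.5 kb without a peak, and the 100 kb after the gene held 37 peaks against 4 before it.

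The genes of the 22q11.2 deletion region, DGCR6 to LZTR1, lay wholly in the dense run. The region spanned 2.09 Mb and had 367 peaks, 175 per Mb, with a median width of 845 bp. Of the 42 listed genes, 42 had a peak within 10 kb and 30 (71.4%) had one with its midpoint within 1 kb of a gene end, here called a peak at an end. Over all 19817 protein-coding genes these shares were 70.6% and 37.8%. The listed genes had a median of 8 peaks in the body or within 10 kb, against 1 over all genes and 2 over chromosome 22. Over all 71 genes of the run the shares were 97.2% and 76.1% and the median was also 8, so these genes did not stand apart from the run they lie in.

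TBX1, the T-box factor whose loss accounts for much of the heart phenotype of the deletion, had 16 peaks within 10 kb, 7 of them in the gene. ARVCF, an armadillo-repeat junction protein, had 27 with 20 in the gene. TANGO2 had 23, TXNRD2, the mitochondrial thioredoxin reductase, had 22, and DGCR2 had 21. GNB1L had 20. DGCR8, the partner of DROSHA in microRNA processing, had 14, and RTN4R, the Nogo receptor of neurons, had 16. CRKL, an adaptor that BCR::ABL1 phosphorylates, had 4. The lowest counts, 1 each, were at DGCR6, PRODH, UFD1, MRPL40 and SERPIND1. HIRA had 6 peaks. DGCR6 and DGCR6L are near copies, as are members of the GGT, IGLL, RIMBP3 and ZNF280 families nearby, and the handling of reads that align to several places is not given, so single counts there are uncertain.

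The neighbourhood of BCR and the lambda locus, HIC2 to GGT1, showed the fall gene by gene. Of its 41 listed genes, 19 lay in the dense run. Of these, 17 had a peak within 10 kb and 16 one at an end, with a median of 11 peaks. RSPH14 had 45, BCR 43, GNAZ, a G protein alpha subunit, 29, PPM1F, a protein phosphatase, 18, TOP3B, a topoisomerase, 16, and RAB36 13. RSPH14 overlaps GNAZ, so the same peaks count for both. The 22 genes past the fall had a median of 1 peak, 12 with a peak within 10 kb and 4 with one at an end. SMARCB1, a core SWI/SNF subunit, MIF, MMP11, DERL3, CHCHD10 and VPREB3 had none. GGT1 had 7 and CABIN1 5.

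Peaks were wider in the dense run. Their median width was 722 bp (quartiles 487 and 1229 bp) against 540 bp (404 and 792 bp) in the rest of the chromosome. Peaks of 1 kb or more made up 35.5% (243 of 685, interval 31.9 to 39.2%) of the run and 14.4% (143 of 992, 12.3 to 16.8%) of the rest. They made up 16.2% on the other chromosomes. The run held 22 of the 30 peaks of 3 kb or more. In all 15.7% of its sequence was under a peak, against 1.92% of the rest. Gaps between peaks were shorter in the run (medians of 1783 and 7473 bp), which follows from choosing it by peak count. The part of this spacing in the widths was not tested.

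**Figure D4:**
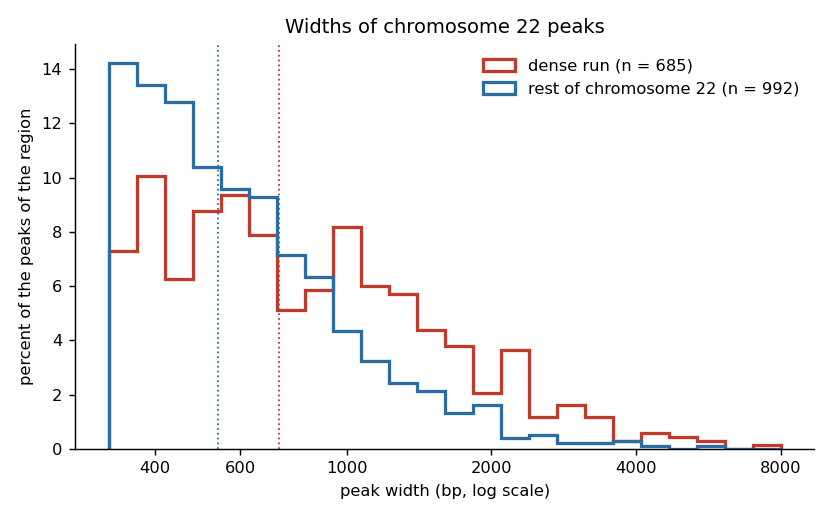
Distribution of peak widths (bp, log scale) as percent of the peaks of the dense run (red, n = 685) and of the rest of chromosome 22 (blue, n = 992), with dotted lines at the medians. The red curve is the higher one between 1 and 3 kb, and the medians are 722 and 540 bp.

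Of the 15 widest peaks 12 lay in the run, and 1, at TXNRD2 (5166 bp), had its midpoint at a gene end. The widest of all, 7694 bp at chr22:20354357-20362050, overlapped the predicted gene LOC124905153. The next, 5839 bp at chr22:19718864-19724702, crossed the end of SEPTIN5, a septin, and the start of GP1BB. MGAT3, an enzyme that adds bisecting sugars to N-glycans, held a 5764 bp peak, the widest outside the run. LZTR1, a regulator of RAS turnover, held one of 5396 bp. A 4822 bp peak lay 48.0 kb from VPREB1, a surrogate light chain gene, and one of 4737 bp lay within 10 kb of RTN4R. Inside genes there were 4588 bp at GNAZ and RSPH14, 4378 bp at CACNA1I, a calcium channel, 4324 bp at ZDHHC8, 4146 bp at GNB1L and 3760 bp at TOP3B. A second TXNRD2 peak had 3748 bp, and a peak 11.3 kb from GGTLC2 had 4293 bp. Most of the widest peaks thus lay in gene bodies or between genes.

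Only 206 of the 1677 peaks (12.3%, interval 10.8 to 14.0%) had a midpoint within 1 kb of an end of a protein-coding gene, against 14.9% of the peaks of all chromosomes. The share ranked 21 of 23 chromosomes, although chromosome 22 has many genes. The 1 kb zones made up 3.95% of its sequence and 2.4% of that of all chromosomes. The share of peaks was 3.11 times the share of sequence, against 6.12 times over all chromosomes. In the dense run it was 10.8% of peaks (interval 8.58 to 13.4%), 1.90 times its share of sequence, and in the rest 132 of 992 peaks (11.3 to 15.6%), 3.56 times. A further 54.1% of the peaks lay elsewhere in gene bodies and 33.6% outside genes. Chromosomes 19 and 17 are also rich in genes and peaks. On chromosome 19, 19.8% were at gene ends, 62.0% elsewhere in bodies and 18.2% outside, and on chromosome 17 the shares were 17.1%, 54.7% and 28.2%. The ratio to the share of sequence was not computed for either. Whether a ratio below 6.12 is particular to chromosome 22 is therefore not known.

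Wide peaks were set beside narrow ones for their share at gene ends. Over all chromosomes the share of peaks at an end was 10.7% in the narrowest of 5 equal width classes of all peaks and 20.8% in the widest. The chromosome 22 peaks of these classes had, from narrow to wide, 35 of 303, 34 of 271, 42 of 324, 39 of 331 and 56 of 448 at an end, which is 11.6% in the narrowest and 12.5% in the widest. The dense run held 28.7% of the narrowest class and 61.8% of the widest, and the shares differed with and without it. In the run they were 13.8% (interval 7.34 to 22.9%) in the narrowest class and 10.5% (7.12 to 14.7%) in the widest. In the rest of the chromosome they were 10.6% (6.87 to 15.6%) and 15.8% (10.7 to 22.1%). The intervals of the narrowest and widest classes overlapped in both.

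Seen from the genes, 179 of 439 (40.8%, interval 36.1 to 45.5%) had a peak at an end, against 37.8% of all genes. A peak in the body or within 10 kb was found for 353 (80.4%), against 70.6%. The split by the dense run was wide: 54 of its 71 genes (76.1%, interval 64.5 to 85.4%) had a peak at an end, and 125 of the other 368 (34.0%, 29.1 to 39.1%). Outside the run, then, the share was below the 37.8% of all genes, though its interval took that value in. For a nearby peak the counts were 69 of 71 and 284 of 368 (77.2%).

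The strand of 308 of the 439 genes could be read from the RefSeq promoter table, which separates transcription starts from transcription ends. Peaks lay within 1 kb of the start of 80 genes (26.0%, interval 21.2 to 31.2%) and of the end of 78 (25.3%, 20.6 to 30.6%). Over all chromosomes with strand the shares were 31.9% at starts and 10.5% at ends. The ratio of starts to ends on chromosome 22, 1.03, was the lowest of the 22 chromosomes that could be measured. The median was 3.68, and the next lowest was 1.32 on chromosome 19. Chromosome 22 ranked first for ends and 17 for starts. In the dense run, peaks were at the start of 24 of 53 genes (45.3%) and at the end of 31 (58.5%). In the rest they were at the start of 56 and the end of 47 of 255 genes. The ratio outside the run was thus 1.19.

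**Figure D5:**
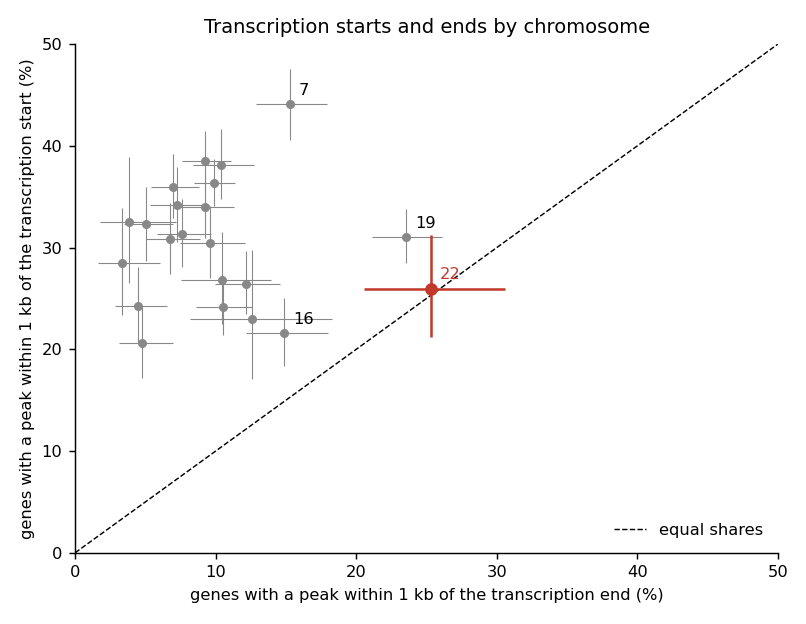
Percent of genes with a peak within 1 kb of the transcription start (vertical) against percent with one within 1 kb of the transcription end (horizontal), 1 point per chromosome with exact 95% intervals. Chromosome 22 (red) lies near the dashed line of equal shares, at 26.0% and 25.3%, and the other chromosomes lie above it.

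The end of a gene can lie beside the start of its neighbour, and how far this set the ratio was not tested. A stricter set kept genes over 5 kb long whose 2 ends were each at least 5 kb from any other protein-coding gene's end. Of the 92 such genes on chromosome 22, peaks were at the start of 22 (23.9%) and at the end of 16 (17.4%). The same filter over all chromosomes gave 33.9% and 6.21% of 6636 genes. In the dense run only 12 genes passed it, 3 with a peak at the start and 4 at the end. Measured from the nearest listed transcription start, 3.28% of chromosome 22 peaks had a midpoint within 250 bp, against 7.09% of all peaks, and 48.3% against 40.2% lay at 10 to 50 kb. Without the dense run the chromosome 22 shares were 4.03% and 44.1%. Listed starts were less complete on chromosome 22, with 308 protein-coding genes covered and 131 not. Over all chromosomes except 8 the counts were 15811 and 3300. A missing start makes a peak look farther away, and the part of this in the shares was not tested. The strand was missing for 131 genes, of which 49 (37.4%) had a peak at an end, against 42.2% of the 308.

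Neighbouring peaks were close. The median gap was 3872 bp, 1783 bp in the dense run and 7473 bp outside. When peaks 10 kb or less apart were joined, 287 (17.1%) stood alone, against 33.6% over all chromosomes, and 957 (57.1%) fell in 86 clusters of 5 or more, 34 of them in the run. Of the 12 clusters with 20 or more peaks, 10 lay in it. The largest had 80 peaks over 237 kb from DGCR8 past RANBP1 and RTN4R to DGCR6L, with 39.9% of its sequence under a peak. The second had 54 over 148 kb from RSPH14 through RAB36 to the point in BCR where the run ended. Then came 46 over 138 kb at SEPTIN5, GP1BB, TBX1 and GNB1L, 45 over 120 kb at ARVCF and TANGO2, and 29 each at PPM1F with TOP3B and at RSPH14 with GNAZ. Outside the run, SCUBE1, a secreted protein of platelets and endothelium, had a cluster of 22 peaks, and TAB1 with MGAT3 one of 20.

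Of single genes, RSPH14 had the most peaks in its body (43), followed by BCR (40) and CACNA1I (30). MYH9, the non-muscle myosin heavy chain of platelets and white cells, had 26, SCUBE1 had 22, GNAZ and GRAMD4 21 each, ARVCF 20, TXNRD2 19 and PI4KA 18. Per 10 kb of gene, ARVCF and GNAZ were the densest of these (3.87 and 3.85), RSPH14 had 3.54, BCR 2.91, CACNA1I 2.52 and MYH9 2.44, and PI4KA had 1.19. A long gene did not always hold peaks. Of 48 genes of 100 kb or more, 7 had none in the body or within 10 kb. All 7 lay outside the run, and SGSM1, SEZ6L, MTMR3, RBFOX2, CACNG2 and ATXN10 were among them. SEZ6L and CACNG2 are neuronal, and RBFOX2 is a splicing factor. The longest stretch between peaks among protein-coding genes was 2.44 Mb, with ISX and HMGXB4 in it, and a further 0.570 Mb held RBFOX2, APOL3, APOL5 and APOL6.

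Among 40 blood cell and immune genes of the chromosome, 35 had a peak within 10 kb and 18 (45.0%) one at an end, with a median of 4 peaks. Over all genes the shares were 70.6% and 37.8%. For the 36 of them outside the dense run the counts were 31 (86.1%) and 15 (41.7%), with a median of 3.5, against 77.2%, 34.0% and 2 over the genes outside the run. MYH9 had 28 peaks, PLXNB2, a semaphorin receptor, 12, and LIF, a cytokine, 7. OSM, another cytokine of its family, and TSPO had 5 each. PDGFB, a platelet growth factor, and TAB1 had 6. IL2RB, the shared beta chain of the IL-2 and IL-15 receptors, RAC2, a small GTPase of blood cells, GRAP2 and NFAM1 had 4 each, and CSF2RB, the shared beta chain of the IL-3 and GM-CSF receptors, had 2. NCF4, a subunit of the phagocyte NADPH oxidase next to CSF2RB, had none, nor had XBP1, MIF, VPREB3 and SELENOM.

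Of 36 genes for transcription and chromatin factors, 26 (72.2%) had a peak within 10 kb, near the 70.6% of all genes, and 10 (27.8%) one at an end, below the 37.8% of all genes, with a median of 2.5. Outside the run the counts were 17 (63.0%) and 4 (14.8%) of 27, with a median of 1, both below the 77.2% and 34.0% of all genes there. SREBF2, which drives cholesterol synthesis, and TCF20 had 7 each, MRTFA, the megakaryocyte leukaemia coactivator, had 5 with a peak at an end, and ATF4, the stress response factor, had 4 with a peak at an end. EP300, the acetyltransferase, had 1, at an end, and MAFF, a small MAF protein, had 3. XBP1, SMARCB1, CHEK2, PPARA, RBFOX2, ISX, HMGXB4, DMC1, PHF5A and ZNF70 had none.

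Genes of other tissues also had peaks. Of 24 neuron and brain genes 21 had a peak within 10 kb and 6 had one at an end, with a median of 2.5. Outside the run these were 17 (85.0%) and 4 of 20 genes, against 77.2% and 34.0% of all genes there. CACNA1I had 32, CELSR1, a planar polarity cadherin, had 20, ELFN2 had 9 and SHANK3, a synapse scaffold, 7. Of 23 muscle, liver and kidney genes 16 (69.6%) had one within 10 kb, near the 70.6% of all genes, and 7 one at an end, with a median of 1. Outside the run these were 15 (68.2%) and 7 (31.8%) of 22. TIMP3, SLC5A1, PVALB and PPARA had none.

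At the far end of the chromosome, 22q13.33 from ZBED4 to RABL2B held 86 peaks in 0.931 Mb (92.4 per Mb) over 35 protein-coding genes, 2.46 per gene. Of 34 listed genes 32 (94.1%) had a peak within 10 kb and 14 (41.2%) one at an end, with a median of 3. Over all genes outside the run the shares were 77.2% and 34.0%. PLXNB2 had 12, SBF1 and MOV10L1 8 each, and ARSA, the lysosomal arylsulfatase, and ACR had none. The widest peak there, 2581 bp, was near DENND6B and PPP6R2. The APOBEC3 cluster of cytidine deaminases, 7 genes in 0.146 Mb, had 9 peaks. All of its members except APOBEC3B had 1 to 3 within 10 kb, though these genes are near copies. The APOL cluster, lipoprotein-like genes of immunity, had 2 peaks in 0.127 Mb, near APOL1 and APOL4.

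The share of non-coding genes with a peak nearby was higher in the dense run than outside it, as for protein-coding genes (97.2% and 77.2%). A peak in the gene or within 10 kb was found for 56.1% of 337 long non-coding RNA genes, against 45.4% over all chromosomes, for 49.0% of 292 pseudogenes against 27.9%, and for 76.3% of 38 immunoglobulin V segments against 16.2%. In the run the shares were 93.3% of 45 long non-coding RNA genes and 90.3% of 62 pseudogenes, and outside it 50.3% of 292 and 37.8% of 230. Of the V segments, 37 lay in the run, 29 of them with a peak, and the 1 outside had none. For the 46 microRNA genes the share was 63.0% (29 genes) against 44.6%, and 11 of 11 in the run against 18 of 35 outside. Genes of these kinds crowd together, so neighbouring genes share peaks.

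A peak overlapped the hairpin gene of 9 microRNAs, 6 of them in the run. The mature sequences are shown for 3 of the latter, with the seed (bases 2 to 8) in capitals, from RefSeq. MIR185 lies in TANGO2 at chr22:20033139-20033220 under a 2126 bp peak. MIR1306 lies in DGCR8 at chr22:20086058-20086142 under a 335 bp peak, and MIR650, in the lambda locus, at chr22:22822776-22822871 under one of 916 bp, all on the plus strand.
hsa-miR-185-5p: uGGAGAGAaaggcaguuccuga
hsa-miR-185-3p: aGGGGCUGgcuuuccucugguc
hsa-miR-1306-5p: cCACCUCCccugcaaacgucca
hsa-miR-1306-3p: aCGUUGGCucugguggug
hsa-miR-650: aGGAGGCAgcgcucucaggac

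The others in the run included MIR1286 in RTN4R (1754 bp) and MIR6816 in TRMT2A (2821 bp). Outside it they were MIR378I, MIR648 and MIR4766, under peaks of 709, 476 and 611 bp. No 2 of the 5 printed sequences share a seed. The peaks were wider than the hairpins, so each also covered sequence of the host gene or locus.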

How the data were processed

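CUT&Tag libraries from untreated cells labelled NB4 were made with LDB1 or IgG antibody (1 each, no replicate), and the LDB1 peak list was analysed here. The deposited values, per the file headers, were chromosome, start, end and length of each peak in bp (positions and widths, counted from 1, both ends included). The submitters' processing notes name Bowtie2 2.4.1, MACS2 2.0.10 and hg38. Not given in the sources used here were thresholds, duplicates, multiply aligned reads, excluded regions and the use of IgG as control, each of which can change peak number and width. Peaks came from 1 library and were not pooled.

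Genes came from a RefSeq table (GRCh38.p14) and strands and promoter sequences from a RefSeq promoter table, which matched 308 of the 439 protein-coding genes of chromosome 22 and none of chromosome 8; 12 rows for contigs were left out. A microRNA sequence table matched 45 of 46 genes. Peaks were placed by midpoint. Counts, shares and exact 95% intervals were computed with Python 3.11.15, pandas 2.3.3 and scipy 1.17.1, and the counting functions were tested on simulated data. With 1 library there is no test and no p-value. Band borders and gene lists were written by hand, and 4 listed symbols were not found. The members, lists, motifs and tests were chosen with earlier results of these data known.

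Genes were named by rule: those at the 15 widest peaks, the 10 with most peaks in the body, those of the 5 largest clusters, of the 5 fullest windows and of windows with fewest peaks, and members of the lists. Others, such as those at printed promoters and microRNAs, were chosen after their values were seen. Alternatives changed 1 choice at a time, except that transcription starts alone also left out genes without strand. They covered distances to gene ends and genes, biotypes, window size, joining distance, the widest 50% or 25% of all peaks and, added after seeing the data, other rules for the dense run and its removal. A few genes the rule allowed are not reported here.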

Additional observations from a re-analysis of the deposited data

Results flagged for a closer look

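Outside the main chromosome, 29 further peaks were listed on 9 contigs assigned to chromosome 22, 19 on unlocalised and 10 on alternate ones. They are given because they entered no count above, and nothing is read from their number.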

How the results depend on the processing

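Every alternative changed 1 choice, except that transcription starts alone also left out genes without strand. With no test the values show only how far each definition moves a number. Depth was unknown and the list has no height, so peaks were thinned by width only. No paired analysis was possible because there was 1 library of each antibody.

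The share of peaks at a gene end (12.3%) was 6.80% within 500 bp, 21.6% within the wider 2.5 kb, 22.1% for genes of all biotypes, 5.43% for transcription starts alone and 15.2% for any overlap. Starts were listed for 308 of the 439 protein-coding genes, so 5.43% leaves out peaks at the starts of the others. With the widest 50% and 25% of all peaks, peaks per Mb fell to 23.6 and 13.5, peaks per gene to 2.16 and 1.23, clusters of 5 or more to 42 and 19, and the median gap was 5866 and 8016 bp. The same 2 settings gave a rank correlation over windows of 0.767 and 0.735, 56.2% and 63.1% of peaks in 22q11, 48.8% and 57.6% in the dense run, 24.4% and 15.5% of genes with a peak at an end and 65.1% and 48.1% with one within 10 kb. Counted from position 1, the density was 33.0 per Mb, and per gene of any biotype there were 1.32 peaks. Joining peaks 1 kb or less apart gave a median width of 638 bp, and gaps between midpoints a median of 4686 bp. The rank correlation was 0.674 in 500 kb windows, 0.717 in shifted windows, 0.848 for all biotypes and 0.710 without empty windows. Genes with a peak at an end were 25.1% within 500 bp, 54.9% within 2.5 kb and 46.2% by overlap, and genes with a peak were 65.1% in the body alone and 94.8% within 50 kb.

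Added after seeing the data, a rule of 3 times the mean started the dense run at 19600001 and gave 36.6% of peaks, while 1.5 times gave the same run. Without the run there were 27.7 peaks per Mb, 2.70 per gene, a median width of 540 bp, a median gap of 7473 bp, 52 clusters, a rank correlation of 0.787 and 34.0% of genes with a peak at an end.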
